A study of Mus musculus with 20 samples.

Results

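Small nucleolar RNAs (snoRNAs) and their Cajal body relatives (scaRNAs) were represented on the array by 60 probe sets, chosen as all probe sets whose single gene symbol begins with Snora, Snord or Scarna and names a numbered RNA. They stand for 54 symbols among 28767 probe sets, of which 21776 name a single gene. The 60 comprise 33 C/D (Snord), 23 H/ACA (Snora) and 4 scaRNA (Scarna) probe sets. Amygdala RNA (left and right) of 20 male mice on a C57BL/6 background (C57BL/6J in the methods) was hybridised, 1 mouse per array, in 4 groups of 5. *KO stress* and *KO con* mice were 5-HTT knockouts, and *WT stress* and *WT con* mice were wild type. All came from heterozygous 5-HTT parents, were single-housed, had been through an elevated plus-maze some weeks earlier and were about 7 months old. The stress groups spent 1 min in cold water at 22 °C and the con groups 1 min in the home cage. The knockout is constitutive, so that it was present in all cells throughout development.

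C/D snoRNAs guide 2′-O-methylation and H/ACA snoRNAs guide pseudouridylation of ribosomal RNA in the nucleolus. C/D RNAs work with fibrillarin and H/ACA RNAs with dyskerin, while scaRNAs guide the same modifications of spliceosomal RNAs in Cajal bodies. Most mammalian snoRNAs are not transcribed on their own but are cut out of introns of host genes, many of which encode ribosomal proteins, translation factors or spliced RNAs with little coding capacity such as Gas5. In neurons the imprinted Snord115 and Snord116 clusters are known from the Prader-Willi region. The annotated RNAs here were 45 to 275 nucleotides long. In the annotation 58 of the 60 lay inside the span of another gene, and the exceptions were both probe sets of Snord118 (U8, needed for processing of the large ribosomal subunit RNA in frog and human cells). The array reads RNA from the snoRNA sequence, so that a mature snoRNA, its precursor and an unspliced host intron cannot be told apart.

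The starts of snoRNA host genes are shown because many mammalian hosts begin transcription at a C followed by a run of pyrimidines, the start typical of ribosomal protein genes. The stretches below cover 25 bases before and 15 bases from the annotated start, taken from RefSeq promoters of GRCm38.p6, and capitals mark the C-led run of C and T at the start itself. Ipo7 and Rplp2 hold Snora23 and Snora52, Rack1 holds Snord95 and Snord96a, and Gas5 holds Snord47. Kansl2 and Eef2, shown for contrast, hold Snora2b and Snord37, and no such run begins at their annotated start.
Rack1 (chr11:48800335-48800374, + strand): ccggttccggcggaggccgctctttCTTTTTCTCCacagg
Ipo7 (chr7:110018290-110018329, + strand): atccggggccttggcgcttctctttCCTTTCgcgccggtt
Rplp2 (chr7:141447626-141447665, + strand): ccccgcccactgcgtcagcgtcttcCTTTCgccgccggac
Gas5, second listed start (chr1:161035141-161035180, + strand): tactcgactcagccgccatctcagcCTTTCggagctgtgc
Kansl2 (chr15:98534255-98534294, - strand): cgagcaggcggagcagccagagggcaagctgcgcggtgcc
Eef2 (chr10:81176606-81176645, + strand): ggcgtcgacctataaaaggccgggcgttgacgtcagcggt
A run of at least 5 such letters (C, then C or T in any order, on the strand of the gene) was found at an annotated start of 6 of 33 host genes with a listed promoter, or 18.2%. Over all 27025 genes with a promoter in the table the share was 3.01%. The match describes letters at an annotated position and not a measured start.

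Array medians lay between 6.59 and 6.82, and any pair of arrays correlated at 0.948 or more, so that the precision of a group mean is limited by its 5 arrays. Slc6a4, the gene of 5-HTT, gave log2 signals of 8.10 to 8.38 in the arrays labelled KO and 5.82 to 6.73 in 9 of those labelled WT, while WT con 5 stood apart from the other WT arrays at 7.82. The signal was thus higher in arrays labelled KO. Without WT con 5 the snoRNA counts given below were 48 of 60 lower in *KO con* than in *WT con* (median -0.12) and 56 of 60 lower in KO mice over both conditions (median -0.20, 13 at p under 0.05). No source used here places its probes relative to the targeted exon, so that it does not check the knockout. KO and WT below are the labels. The score of amygdala and forebrain neuron markers (median over the list of log2 signals centred on the 20-array mean) lay between -0.14 and 0.08 in *KO stress*, -0.02 and 0.17 in *KO con*, -0.14 and 0.12 in *WT stress*, and -0.31 and 0.04 in *WT con*.

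**Figure D1:**
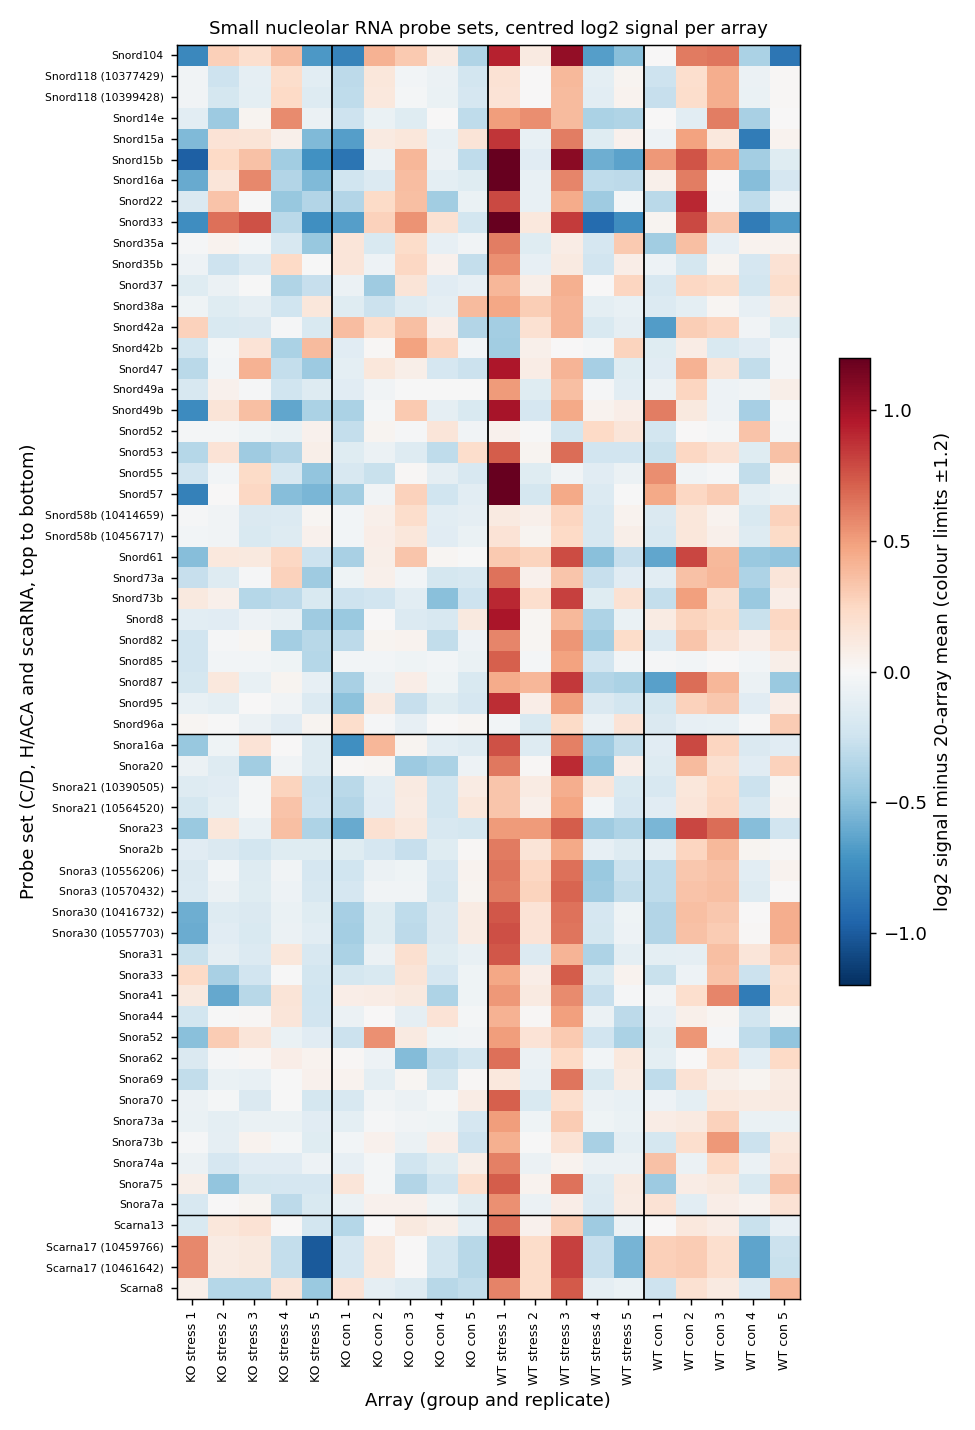
Signal of each of the 60 snoRNA and scaRNA probe sets (rows, by class) in each of the 20 arrays (columns, by group and replicate) as log2 difference from the mean of that probe set over all arrays. WT stress 1 and WT stress 3 are red in most rows, with 57 and 58 of 60 probe sets above their own mean, whereas WT stress 4 is blue with 4 of 60 above.

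The snoRNA probe sets varied together from mouse to mouse, and 2 arrays of the *WT stress* group had the highest signals. The snoRNA score of an array, the median over the 60 probe sets of their centred log2 signal, was -0.17, -0.04, -0.03, -0.07 and -0.20 in the 5 *KO stress* arrays and -0.21, -0.02, 0.02, -0.13 and -0.09 in the 5 *KO con* arrays. It was 0.62, 0.04, 0.45, -0.20 and -0.08 in *WT stress* and -0.14, 0.25, 0.20, -0.17 and 0.04 in *WT con*. All KO arrays thus lay within a band of low values, while the WT arrays spanned that band and reached above it. WT stress replicate 1 was the highest of all 20 arrays in 32 of 60 probe sets and WT stress replicate 3 in 14. The SD of the score was 0.08 in *KO stress* and 0.09 in *KO con*, against 0.35 in *WT stress* and 0.19 in *WT con*. C/D and H/ACA classes showed the same arrays at the top, with scores of 0.62 and 0.60 in WT stress 1 and of 0.41 and 0.49 in WT stress 3.

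After group means were removed, 43 of the 60 probe sets correlated above 0.6 over the 20 arrays with the mean of the other members. Of all probe sets 11.2% did so with the mean of the 60. The probe sets share each mouse's RNA, labelling and hybridisation, so that the value describes their common variation. The score spread most in *WT stress* (SD 0.35, against 0.08 in *KO stress*), so those arrays weigh most in these correlations. No value without them is given. Snord52 (r = -0.38), Snord42b (-0.23), Snord96a (-0.03) and Snord42a (0.18) did not follow the others, and they were picked out after their values were seen. The median residual SD of the members was 0.29 on the log2 scale, against 0.18 for all probe sets. It was greatest for Snord33 (0.74), Snord15b (0.67), Snord104 (0.64), Scarna17 (0.51 in each of its 2 probe sets) and Snora23 (0.48).

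Snord33, a C/D RNA of the Rpl13a gene linked to lipotoxic stress in hamster cells, shows the width of this spread. Its log2 signal was 6.76, 8.16, 8.26, 7.18 and 6.77 in *KO stress*, 6.84, 7.78, 8.04, 7.69 and 7.29 in *KO con*, 8.85, 7.63, 8.34, 6.58 and 6.75 in *WT stress*, and 7.54, 8.29, 7.83, 6.67 and 6.83 in *WT con*. The 4 groups overlapped over most of their range. Scarna17, a Cajal body RNA, read 10.61, 10.13, 10.15, 9.75 and 9.02 in *KO stress* and 11.07, 10.25, 10.85, 9.75 and 9.47 in *WT stress*. Its highest *WT stress* arrays were again replicates 1 and 3, and *KO con* (9.70 to 10.16) and *WT con* (9.40 to 10.34) lay inside the range of the stressed mice.

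**Figure D2:**
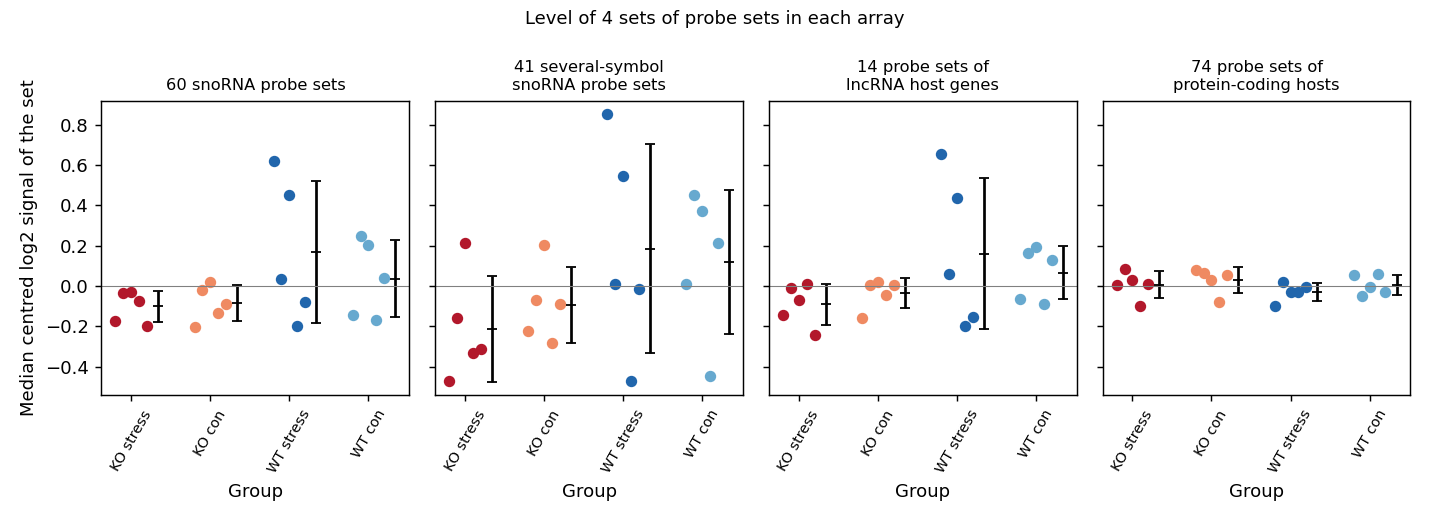
Median centred log2 signal of 4 sets of probe sets (panels) in each array (points, replicates 1 to 5 from left to right in each group); the black mark with bars is the group mean with SD. The sets of snoRNA and long noncoding host probe sets reach 0.62 and 0.66 in WT stress 1, while the protein-coding hosts stay between -0.10 and 0.08 in all arrays. The noncoding set is a wider list of snoRNA hosts, most of which hold no member, whereas the protein-coding set holds hosts of members only.

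The genotypes were compared first after acute stress. Of the 60 probe sets 59 were lower in *KO stress* than in *WT stress*, with a median log2 difference of -0.27, against -0.03 over all probe sets, of which 58.6% were lower. At an unadjusted limma p under 0.05, 15 probe sets were lower and 0 were higher, where 6.23% of all probe sets were lower and 3.05% higher. They were 7 C/D, 7 H/ACA and 1 scaRNA probe sets. After Benjamini-Hochberg adjustment over all probe sets 0 of the 60 passed 0.05 (smallest limma adjusted p = 0.53), as against 0.00348% of the table. The count depended on the 2 high arrays: 3 probe sets were lower at that p without WT stress replicate 1 and 5 without replicate 3. Both were also left out together, an exclusion chosen after the data were seen. Then 34 of 60 were lower (51.0% of all probe sets), 0 at p under 0.05 and with a median of -0.024. Leaving out WT stress replicate 4, the lowest array of its group, gave 26, and leaving out replicate 5 gave 22. Without KO stress replicate 5 the count was 9.

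Snord37, a C/D RNA inside Eef2 (translation elongation factor 2), was the one member whose groups did not overlap, as for 0.660% of all probe sets in that direction. Its log2 signal was 5.64, 5.72, 5.78, 5.43 and 5.51 in *KO stress*, against 6.19, 5.86, 6.21, 5.79 and 6.04 in *WT stress*. The highest *KO stress* array (5.78) and the lowest *WT stress* array (5.79) nearly met. The difference was -0.40 (SE 0.12, limma p = 0.00356, adjusted p = 0.53), and the exact two-sided permutation test of 5 against 5 arrays gave 0.00794, the smallest p it can give. Without WT stress replicates 1 and 3 the difference was -0.28 and no longer passed p under 0.05. The Eef2 probe set itself differed by 0.07 (SE 0.09).

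Snord57, a C/D RNA in Nop56 (whose protein is a core component of C/D particles), was the only member with a fold over 1.5 and an unadjusted p under 0.05, a criterion met by 0.768% of all probe sets. Its log2 signal was 8.35, 9.17, 9.41, 8.65 and 8.61 in *KO stress*, against 10.43, 8.95, 9.62, 8.99 and 9.15 in *WT stress*. The groups overlapped, and the WT value of 10.43 stood alone. The difference was -0.59 (SE 0.25, limma p = 0.0305, adjusted p = 0.53), and the exact permutation test gave p = 0.119. Without WT stress replicate 1 it was -0.34 and the call was lost, as it also was without WT stress replicate 3 (-0.54) or KO stress replicate 1 (-0.47), 4 (-0.54) or 5 (-0.53). In the other comparisons 0 members met this criterion, where the share of all probe sets was 0.139% between *KO stress* and *KO con*, 0.240% between *WT stress* and *WT con*, 0.0487% between *KO con* and *WT con*, 0.139% between genotypes over both conditions, 0.0556% between stress and con over both genotypes and 0.591% for the interaction. Nop56 itself differed by 0.02 (SE 0.07).

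Snord73b, a C/D RNA in Rps3a1 (a small-subunit ribosomal protein), had signals of 5.88, 5.82, 5.42, 5.45 and 5.57 in *KO stress*, against 6.67, 5.96, 6.58, 5.62 and 5.94 in *WT stress*. The 2 highest WT arrays were replicates 1 and 3, and the groups overlapped. Its difference was -0.52 (SE 0.19, limma p = 0.0139, exact permutation p = 0.0397), and without WT stress replicate 1 it was -0.40 and the call was lost. Snora75, an H/ACA RNA in Ncl (nucleolin), gave 6.41, 5.87, 6.13, 6.14 and 6.14 in *KO stress*, against 7.07, 6.38, 6.99, 6.19 and 6.45 in *WT stress*. Its difference was -0.48 (SE 0.18, limma p = 0.0137, exact permutation p = 0.0238). Both lost their call when WT stress replicates 1 and 3 were left out together, with differences of -0.21 for Snord73b and -0.20 for Snora75.

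Snora2b, an H/ACA RNA in Kansl2 (a subunit of a chromatin-modifying complex), had lower signals in KO mice in both conditions. Its signal was 5.39, 5.35, 5.30, 5.38 and 5.38 in *KO stress* and 5.38, 5.32, 5.25, 5.38 and 5.54 in *KO con*. It was 6.15, 5.68, 5.98, 5.42 and 5.37 in *WT stress* and 5.42, 5.78, 5.91, 5.56 and 5.53 in *WT con*. KO arrays were closely grouped and WT arrays scattered upward, and 6 of 10 WT arrays lay above all 10 KO arrays. The difference was -0.36 in stressed mice (SE 0.12, limma p = 0.0100, exact permutation p = 0.0317) and -0.26 in control mice (SE 0.12, limma p = 0.0480, exact permutation p = 0.0238). Averaged over both conditions it was -0.31 (SE 0.09, limma adjusted p = 0.41), with the smallest unadjusted p of the 60. In control mice the call was lost with the replicate number as a block and in 13 of the 20 fits that left out 1 array each, WT con replicate 3 (-0.20) among them, while in stressed mice it was lost in none of the 20 but was lost without WT stress replicates 1 and 3 together (-0.13).

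**Figure D3:**
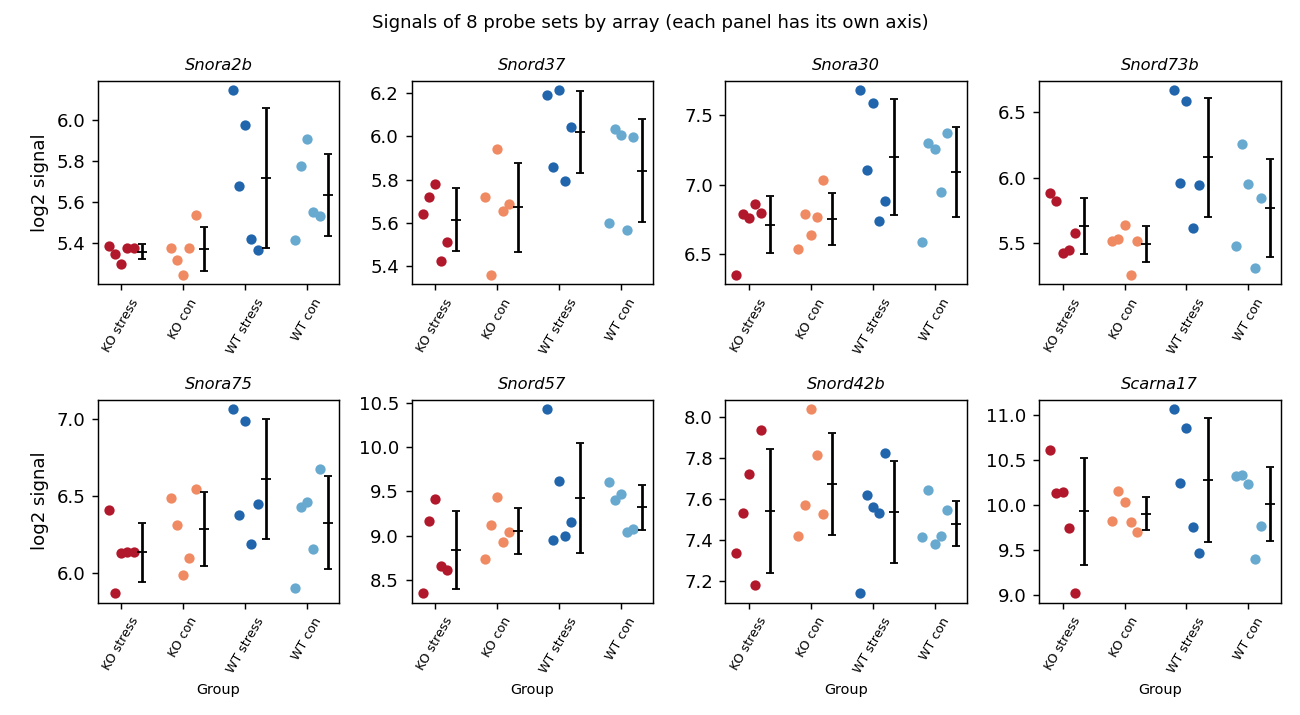
log2 signal of 8 snoRNA and scaRNA probe sets by array (points, replicates 1 to 5 from left to right) in the 4 groups, with the group mean and SD in black; each panel has its own axis. The WT stress arrays 1 and 3 lie on top in 7 panels, Snord37 is the only one whose KO stress and WT stress points do not overlap (5.43 to 5.78 against 5.79 to 6.21), and Snord42b has its lowest value, 7.14, in WT stress 1.

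In control mice, kept in the home cage, the differences were smaller. Of the 60 probe sets 51 were lower in *KO con* than in *WT con*, with a median of -0.11 against 0.00 over all probe sets (49.7% of which were lower). Snora2b alone was lower at an unadjusted limma p under 0.05, where 1.67% of all probe sets were lower, and 0 members were higher (1.90% of all). After adjustment 0 passed (smallest adjusted p = 0.93). Next in order of p were Snora62 (-0.26, SE 0.13, limma p = 0.0554, exact permutation p = 0.0794), an H/ACA RNA in the ribosomal protein gene Rpsa, Snora30 (-0.34, SE 0.18, limma p = 0.0764, exact p = 0.0873), in the chromatin remodeller gene Srcap, and Snora74a (-0.21, SE 0.11, limma p = 0.0809, exact p = 0.0714), in the noncoding RNA Snhg4. With the spread estimated without WT stress replicates 1 and 3, 7 probe sets were lower at that p, with the same differences. The share of all probe sets in that fit is not given, so this count is not a result about the members. With the replicate block the count was 0, and over single arrays left out it lay between 0 and 4, the 4 without WT con replicate 1.

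Averaged over both conditions 57 of 60 were lower in KO than in WT mice, with a median log2 difference of -0.20, against -0.01 over all probe sets (55.1% lower). At unadjusted limma p under 0.05, 15 were lower and 0 higher, where 7.34% of all probe sets were lower and 4.71% higher. After adjustment 0 passed (smallest adjusted p = 0.41, against 0.00348% of the table). The differences of these 15 lay between -0.43 (Snord57) and -0.17 (Snora7a, in the ribosomal protein gene Rpl32). Both Snora30 probe sets were at -0.41 (SE 0.13), Snord73b at -0.40 (SE 0.14), Snord37 at -0.29 (SE 0.09), Snora62 at -0.23 (SE 0.09) and Snora74a at -0.21 (SE 0.08). The rest, named after their values were seen, were Snora20, Scarna8, Snord82, Snord8, Snord95 and Snora73a (U17, needed for 18S RNA processing in yeast as snR30). WT stress replicates 1 and 3 were then left out together. This left 46 of 60 lower (51.7% of all probe sets), with a median of -0.06 and 5 at p under 0.05. With WT stress 1 and WT con 1, the arrays least correlated with the rest, left out, 55 were lower with a median of -0.14, 15 at that p. Without WT stress replicate 4 the count at that p was 25, and over all single arrays left out it lay between 11 and 25.

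Snora30 was read by 2 probe sets that gave nearly the same values. The first had 6.35, 6.79, 6.76, 6.86 and 6.80 in *KO stress* and 6.54, 6.79, 6.64, 6.77 and 7.04 in *KO con*. It had 7.68, 7.11, 7.59, 6.74 and 6.89 in *WT stress* and 6.59, 7.30, 7.26, 6.95 and 7.37 in *WT con*. Of the 10 WT arrays 6 were above all 10 KO arrays. Its probe sets differed by at most 0.04 in any array, and they were not independent measurements. In all, 6 symbols had 2 probe sets (Scarna17, Snora21, Snora3, Snora30, Snord118 and Snord58b), with correlations of 0.971 or more over the 20 arrays. Counted with 1 probe set per symbol, 51 of 54 were lower in KO mice averaged over conditions and 53 of 54 in stressed mice.

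The 3 probe sets not lower in KO mice on average were Snord42b (0.10, SE 0.10), Snord42a (0.08, SE 0.13) and Snora52 (0.01), singled out after their values were seen. Snord42a and Snord42b are C/D RNAs of a single host, the ribosomal protein gene Rpl23a. Snord42b had signals of 7.33, 7.53, 7.72, 7.18 and 7.94 in *KO stress*, 7.42, 7.57, 8.04, 7.82 and 7.52 in *KO con*, 7.14, 7.62, 7.56, 7.53 and 7.82 in *WT stress*, and 7.41, 7.64, 7.38, 7.42 and 7.54 in *WT con*. WT stress 1, the highest array for most members, was the lowest of the 20 for this one. Its difference between *KO stress* and *WT stress* was 0.01 (SE 0.15).

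Members of a shared host are set side by side for some hosts, picked with their values known. In Rack1, a ribosomal scaffold gene, Snord95 differed by -0.28 (SE 0.12) and Snord96a by 0.00 (SE 0.06) between KO and WT mice averaged over conditions. In Rps3a1 Snord73b differed by -0.40 (SE 0.14) and Snord73a by -0.20 (SE 0.12). In Ncl Snord82 and Snora75 differed by -0.31 (SE 0.11) and -0.26 (SE 0.12), and in Rps3 Snord15b and Snord15a by -0.49 (SE 0.28) and -0.21 (SE 0.17). The differences within these pairs were not tested, and the 10 hosts with more than 1 member symbol held 20 of the 60 probe sets.

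The effect of acute stress was compared within each genotype. Between *KO stress* and *KO con* 43 of 60 probe sets were lower with a median of -0.04, where 51.1% of all probe sets were lower. Of the 60, 0 had an unadjusted limma p under 0.05, as 1.13% of all probe sets did. The smallest p was that of Snora62, with a difference of 0.21 (SE 0.13, limma p = 0.121, exact permutation p = 0.0635) and signals of 5.86, 6.01, 6.05, 6.11 and 6.08 in *KO stress*, against 6.04, 5.97, 5.51, 5.74 and 5.81 in *KO con*. Choroid plexus markers were far apart in this comparison, with array scores of -0.52 to 1.90 in *KO stress* and -0.80 to -0.39 in *KO con*, and 7 of the 10 higher at p under 0.05. Their part in the snoRNA values was not tested.

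Between *WT stress* and *WT con* 56 of 60 were higher with a median of 0.12, against 0.03 over all probe sets (62.8% higher). Again 0 reached an unadjusted limma p under 0.05, where 3.54% of all probe sets did. The smallest p were those of Snord73b (0.39, SE 0.19, limma p = 0.0601, exact permutation p = 0.175) and Snord38a (0.25, SE 0.13, limma p = 0.0667, exact p = 0.111), a C/D RNA. Snora75 (0.29, SE 0.18) and Snord37 (0.18, SE 0.12) came next. The direction depended on the 2 high arrays. Without both of them 51 of 60 were lower with a median of -0.11, 2 at p under 0.05. Of all probe sets 48.7% were lower in that fit. This exclusion was chosen after the data were seen. It removes the 2 highest snoRNA scores of the group, so it lowers the *WT stress* values of the members by its choice. Leaving out a single *WT stress* array gave a median of 0.02 for replicate 1, 0.03 for replicate 3, 0.23 for replicate 4 (4 members higher at that p) and 0.19 for replicate 5 (3 members higher). Among the *WT con* arrays it was 0.06 for replicate 1 and 0.07 for replicate 4. Averaged over genotypes 47 were higher with stress, with a median of 0.04, where 60.6% of all probe sets were higher, and 0 passed that p (1.67% of all probe sets). After array median centring 31 of 60 were lower with stress, and without WT stress replicate 1 35 were.

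The interaction, the stress difference in KO minus that in WT mice, was negative in 52 of 60 with a median of -0.15, against -0.03 over all probe sets (59.7% negative). Of the 60, 0 had an unadjusted limma p under 0.05, where 2.52% of all probe sets did (limma, 0 after adjustment). Snora75 had the smallest p, with an interaction of -0.44 (SE 0.25, limma adjusted p = 1.00). Without WT stress replicates 1 and 3, left out for their high snoRNA scores, the sign turned, with 16 of 60 negative and a median of 0.12. The stress differences of the genotypes were therefore not shown to differ for any member.

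**Figure D4:**
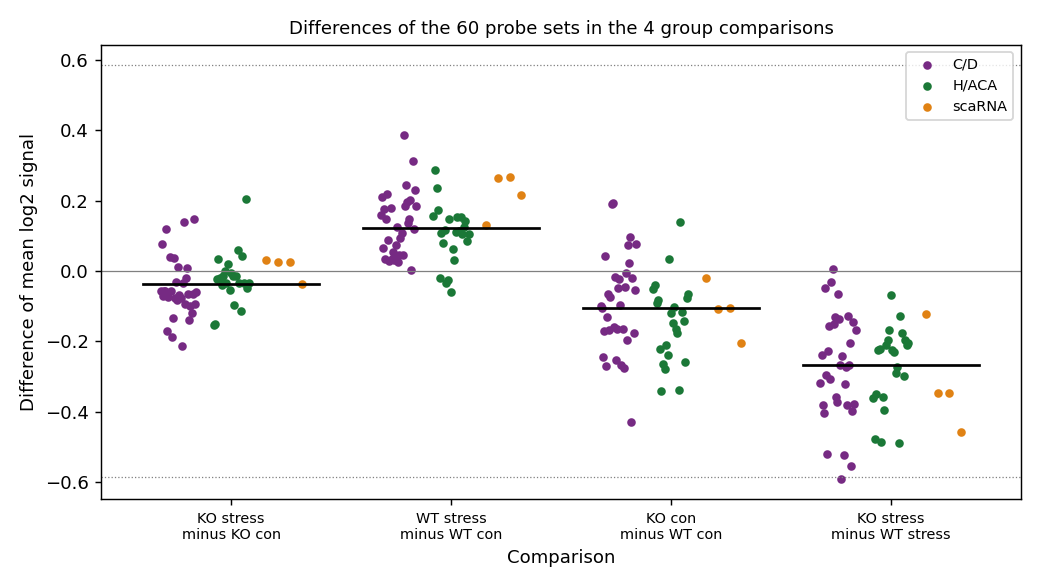
Difference of mean log2 signal of each probe set (points, coloured by class) in the 4 group comparisons, the black line being the median of the 60 and the dotted lines a fold of 1.5. The medians are -0.04, 0.12, -0.11 and -0.27 from left to right, and 1 point (Snord57, -0.59) lies beyond a dotted line.

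Over all arrays the host genes differed less between genotypes than the snoRNAs they hold, and in stressed mice this depended on WT stress replicates 1 and 3. Probe sets with a single symbol were present for 26 hosts (74 of 25 protein-coding genes and 4 of Gas5). Where a ribosomal protein gene has several probe sets, these may read near-identical copies, and their values are uncertain to that extent. Between *KO stress* and *WT stress* 54 of these 78 were higher, with a median of 0.02, and 1 was lower (Chd8, -0.20) and 2 higher (Eef1b2, 0.29, and Rps3a1, 0.20) at p under 0.05, no more than the 6.23% of all probe sets lower and 3.05% higher at that p. Averaged over conditions 44 of the 78 were higher (median 0.03), 5 of them at that p, and 0 were lower at that p. Of all probe sets 4.71% were higher and 7.34% lower at that p. Members were also paired with their host, taken as the mean of its probe sets. In stressed mice the difference of the member lay below that of the host in all 33 pairs. The medians were -0.35 for members and 0.05 for hosts, and over all mice this order held in 30 of 33. Without WT stress replicates 1 and 3 it held in 21 of 33 in stressed mice, with medians of -0.03 for members and 0.00 for hosts, and in 28 of 33 over all mice, with medians of -0.08 for members and 0.00 for hosts. Rps3a1 was higher in KO mice averaged over conditions (0.16, SE 0.06) where its Snord73b was lower (-0.40, SE 0.14).

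**Figure D5:**
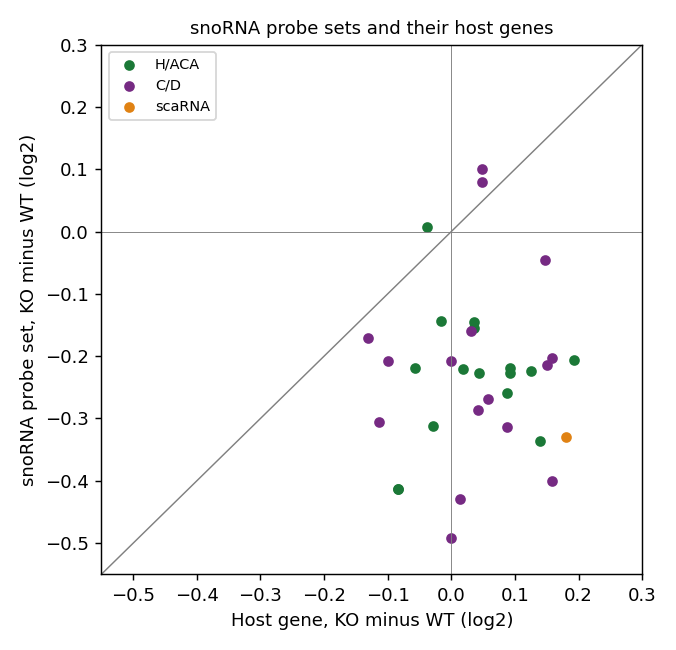
Difference of KO minus WT mice averaged over conditions, in log2, of each snoRNA probe set (vertical axis) against the mean of its host gene's probe sets (horizontal axis), 33 pairs coloured by class, with the line of equality. Of the pairs 30 lie below the line.

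The Gas5 transcript, a spliced noncoding RNA whose introns carry several C/D RNAs, was the noncoding host with a probe set of its own. Its 4 probe sets differed between *KO stress* and *WT stress* by 0.11, -0.35, -0.34 and -0.27, with standard errors of 0.10 to 0.27. After group means were removed they correlated with the member mean over the 20 arrays at 0.21, 0.60, 0.93 and 0.47 in the same order. Of the coding hosts Mcmdc2, picked out after its value was seen, had the highest, 0.87. The 2 Kansl2 probe sets had 0.64 and 0.56, and coding hosts not named here had values of either sign. Eef2 (-0.81), Ncl (-0.64) and the 13 probe sets of Rpl23a (-0.71 to -0.02) ran the other way. Snord87, the member in Mcmdc2, also lies within the span of the noncoding gene Snhg6, and strand was not used to choose between them. Snord47, the member in Gas5, differed by -0.32 (SE 0.21) between *KO stress* and *WT stress*. A wider list of noncoding snoRNA hosts had 14 probe sets of 8 genes. Of the noncoding genes that hold a member only Gas5 had a probe set, so Snhg11, Snhg15 and Snhg17 hold no member. Of the 14 probe sets 13 were lower in *KO stress*, 2 at p under 0.05 (Snhg15, -0.31, and Snhg17, -0.28). Over both conditions 4 were lower at that p, namely Snhg15 (-0.25), Snhg11 (-0.38) and 2 of 3 Snhg17 probe sets (-0.18 and -0.21). The list scored 0.66 and 0.44 in WT stress 1 and 3, and without both arrays 5 of 14 were lower in *KO stress*.

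Other short RNAs were also high in WT stress 1, and not all of them in WT stress 3. A further 41 probe sets name a snoRNA together with other genes, 24 of them Snord115 or Snord116, and scored 0.85 in WT stress 1 and 0.55 in WT stress 3. In *KO stress* all 41 were lower (median of -0.40 relative to *WT stress*), with 4 at p under 0.05, and 34 were without those arrays (median -0.05). None of the 4 was among the 24 Snord115 or Snord116 probe sets, whose median was -0.40. These 24 may read near-identical copies, so that the 41 are not independent measurements. Of 13 probe sets for spliceosomal and other nuclear small RNAs, 11 were lower in *KO stress*, 2 at p under 0.05. This list scored 0.61 in WT stress 1 but -0.05 in WT stress 3, below 0.13 and 0.12 in WT con 1 and 2. The 2 probe sets were Rnu7 (U7, of histone messenger 3′ ends, -0.52, SE 0.15) and Rn7sk (7SK, which holds back the elongation factor P-TEFb, -0.31, SE 0.14), and without WT stress replicates 1 and 3 the list had 5 of 13 lower. The 305 microRNA probe sets, which read precursor genes, scored 0.54 in WT stress 1 and 0.17 in WT stress 3, and all other arrays lay between -0.13 and 0.11. Over both conditions 288 of the 305 were lower in KO mice, with a median of -0.16 and 96 at p under 0.05, where 55.1% of all probe sets were lower and 7.34% lower at that p. Without both arrays 82.6% of the 305 were lower (median -0.07), where 51.7% of all probe sets were. Between *KO con* and *WT con*, which hold neither array, 271 of 305 were lower (median -0.14), 23 at that p, where 1.67% of all probe sets were. WT stress 1 also stood out over 5373 probe sets without a gene symbol, at 0.23 against -0.05 to 0.02 in the arrays outside *WT stress*.

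Of the core proteins and assembly factors of snoRNA particles, 0 of 23 probe sets had a lower signal in KO mice averaged over conditions at p under 0.05, where 7.34% of all probe sets did. For the C/D core proteins (fibrillarin, Nop56, Nop58 and Snu13) 6 of 8 probe sets were higher averaged over conditions, 4 of them at unadjusted p under 0.05, where 4.71% of all probe sets were higher. All 4 carry the symbol Snu13, the protein that first binds the C/D RNA, and may read near-identical copies of it, with differences of 0.18, 0.19, 0.21 and 0.23. Of 4 probe sets for the H/ACA core proteins, dyskerin among them, 3 were higher and 0 passed that p. Among 11 assembly factors Nolc1 (0.24, SE 0.10) and Znhit6 (0.18, SE 0.08) were higher at that p. Tgs1 (0.22, SE 0.10), which makes the trimethylguanosine cap, was higher as well, and 1 of 7 probe sets for 3′ end processing was lower (Pabpn1, -0.18, SE 0.08). After adjustment 0 of these passed (limma adjusted p = 0.41). WT stress 1 was the lowest array for the C/D core list (-0.45), the assembly factors (-0.39) and the list of Cajal body and cap factors (-0.31). No value without that array is given for these genes.

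Cell type markers also differed among the *WT stress* arrays. Markers of striatal and central amygdala neurons (6 probe sets) scored 0.86, 0.83, 0.81, -1.12 and -1.07 in *WT stress* replicates 1 to 5. Within this group they were thus high in both arrays of high snoRNA signal and in replicate 2. Outside it the marker score did not always follow the snoRNA score. The marker score was 0.94 in KO con 1, the array with the lowest snoRNA score of its group. It was -0.11 and -0.58 in WT con 2 and 3, the arrays with the highest snoRNA scores of their group. Choroid plexus markers (10 probe sets) scored 0.35, -0.73, -0.87, 2.62 and -0.66, so that WT stress 4, the array with the lowest snoRNA score of its group, was the highest. Glia and vessel markers (9 probe sets) were lowest in WT stress 1 (-0.44) and WT stress 3 (-0.24). Between *KO stress* and *WT stress* 9 of 10 choroid plexus, 9 of 9 meninges and 5 of 5 ependyma probe sets were higher in *KO stress*, with 0, 1 and 1 at p under 0.05. The meninges score ranged from -0.08 to 1.67 in *KO stress* and from -0.56 to 0.51 in *WT stress*, and the ependyma score from 0.05 to 0.61 in *KO stress* and from -1.14 to 0.44 in *WT stress*. The part of these markers in the snoRNA values was not tested, and in whole tissue fewer cells of a type cannot be told apart from less RNA per cell.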

How the data were processed

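The authors extracted total RNA of each amygdala pair, labelled it with a whole-transcript kit, summarised the array intensities with ExonRMA in ArrayAssist, stabilised the variance and deposited log2 values for 28767 probe sets, which were used unchanged. Symbols came from the platform's probe table. Members, classes and gene lists were chosen with earlier results of these data known. A host is a gene of the RefSeq annotation (GRCm38.p6) whose span contains the member, without regard to strand, since the table gives none. Symbols, hosts and promoters were matched by gene ID, and all 60 members matched.

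Contrasts of the 4 group means were fitted over all 20 arrays with lmFit and eBayes (limma 3.58.1, R 4.3.3; 16 residual and 2.10 prior degrees of freedom), and p-values were adjusted by Benjamini-Hochberg over all probe sets. The criterion of the methods asks for a fold over 1.5 and an unadjusted p under 0.05. Single members were also compared by an exact two-sided permutation test. P-values measure the spread between mice. The script was tested on simulated data. Figures used Python 3.11.15 and matplotlib 3.10.9.

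Members followed by name were those meeting the criterion, the 4 with the smallest p in each comparison, the 6 with the largest residual SD, their hosts, and list genes at unadjusted p under 0.05; others are said to have been picked after their values were seen. Alternatives were other tests, scalings, filters, array weights, a replicate block and each array left out. No value lay at the table's floor of 4.09 for any member, and 3 of 60 had a mean under 5. The most frequent value of a probe set was shared by 4 or more arrays in 3 members (Snord85, Snora74a and Snord52) and in 25.4% of all probe sets. Sequences of the snoRNAs themselves were not used here.

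Arrays are numbered 1 to 5 within each group, and the meaning of a number shared by groups is not stated. As a check, deviations from the group means were correlated between same-numbered arrays. Only *WT stress* and *WT con* had all 5 correlations over 0.1 (0.162 to 0.420), so pairing by number was accepted for these groups and no others. This rule is not a test. The same-numbered array was the best match in 3 of 5 cases here, and also in 3 of 5 between *KO con* and *WT con*. The limma and permutation p-values given above for *WT stress* against *WT con* do not use the pairing, which enters only as an alternative.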

Additional observations from a re-analysis of the deposited data

Results flagged for a closer look

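Of 84 groups of 5 arrays (21 named members in 4 groups), 4 held an array far from the others, with a gap of more than 0.71 of the group's range, and chance alone marks about 1 in 20 groups. Snora30 read 6.35 in KO stress replicate 1 in one probe set and 6.34 in the other, which are not independent. Snord38a read 5.34 in KO con replicate 5, against 4.70 to 4.85 in the other 4 arrays of that group. Snora74a read 6.56 in WT stress replicate 1, against 5.89 to 6.00 in the others. No member had an interaction of genotype and stress at an unadjusted limma p under 0.05, so that 0 differences between the genotypes' stress responses were marked.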

How the results depend on the processing

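The count of members with a fold over 1.5 and p under 0.05 between *KO stress* and *WT stress* (1, Snord57) was 0 after array median centring, with array weights, with limma restricted to the 2 groups compared, with the t-test of the methods and with the Welch test, as well as without WT con 1 and WT stress 1 together and, an alternative added after seeing the data, without WT stress 1 and 3 together. It ran from 0 to 4 over the arrays left out in turn, and the count averaged over conditions from 0 to 1. Without WT stress 1 and 3 the member medians moved to -0.024 (*KO stress* against *WT stress*), -0.11 (*WT stress* against *WT con*) and 0.12 (interaction), and the interaction of Snord85 was 0.0018 in place of -0.28. Leaving out 1 array at a time gave medians of -0.38 to -0.13 in stressed mice, -0.19 to -0.06 in control mice and -0.25 to -0.13 averaged. At unadjusted p under 0.05 the stressed mice gave 15 members, 5 by the t-test, 1 by the Welch test, 7 with limma on the 2 groups alone, 12 after quantile normalization and 7 with array weights. In control mice the count of 1 became 4 with limma on the 2 groups alone, 7 with array weights and 0 with the replicate block. Shares of all probe sets at that p are not given for these alternatives. The replicate block over all groups left 1 member past the criterion in stressed mice and 0 averaged over conditions, and with the WT arrays alone paired it gave 0 for *WT stress* against *WT con*; it changed no other call of members past the criterion. The median residual SD of 0.29 is a spread of single arrays and not the standard error of a difference such as the member median of -0.27. With 5 arrays a group, 0 members passed adjustment under any alternative.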
